A study of Mus musculus with 24 samples.

Results

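The mouse jejunal crypts described here carry the label of a conditional knockout of Apc (ApccKO) at 24 h (day 1) or 48 h (day 2). The measurement is how their polyadenylated RNA differed between those days. They are the 3 libraries labelled ApccKO on day 2 and the 3 labelled ApccKO on day 1, chosen by genotype and day in the labels, 6 of 24 libraries in all. The study sequenced crypts of 24 mice, 3 of each of 4 genotypes on each day: Control, a conditional knockout of Nle1 (Notchless), ApccKO, and the double knockout labelled ApccKO;NlecKO. Mice of 5 to 10 weeks, Control mice included, received tamoxifen intraperitoneally at 56 mg/kg on 3 consecutive days, and 5 to 10 cm of jejunum was taken for crypt isolation. Which injection the 24 h and 48 h count from is not stated here, so they are not taken as the time since Apc was lost. The sources used here do not name the Cre driver, the cells it acts in or the floxed exons. Each library came from a separate mouse, so a day difference is a difference between mice and not a course followed in one animal. Control and double knockout crypts serve below only as the same day difference measured in other mice.

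The APC protein is part of the complex that marks beta-catenin for destruction. When it is lost, beta-catenin enters the nucleus and drives Wnt target genes without a Wnt ligand, which in the intestine turns a crypt towards adenoma. A normal crypt holds Lgr5-expressing stem cells and Paneth cells at its base, dividing progenitors above them, and the first members of the absorptive lineage (enterocytes) and the secretory lineages (goblet, enteroendocrine and tuft cells). The comparison asks what goes on changing in such crypts once the loss has been induced. RNA of whole crypts was measured, so fewer cells of a type and less RNA per cell cannot be told apart.

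Levels are given in CPM, counts per 1e6: the estimated counts of a gene divided by the library's normalised total. ApccKO libraries held 17.86 M to 20.56 M estimated counts (M stands for 1e6). Apc RNA itself did not mark the genotype: it was at 138, 145 and 141 CPM on day 1 and 140.2, 129 and 136 CPM on day 2, against 129.8 ± 2.16 CPM (SD, n = 3) in Control on day 1. Its day difference was -0.07 ± 0.08 on the log2 scale (adjusted p = 0.65), and since the deleted part is not named, its level does not check the labels. Axin2, a target induced by beta-catenin, was at 442, 444 and 499 CPM in the ApccKO libraries of day 1 and at 538, 506 and 492 CPM in those of day 2. The Control libraries held 111 ± 13.2 CPM of it on day 1 (SD, n = 3). Nle1 was at 39.9, 36.1 and 35.6 CPM and 36.2, 34.3 and 34.2 CPM in ApccKO and at 9.59 ± 2.41 CPM in the double knockout on day 1.

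Day 1 replicates 2 and 3 of ApccKO stand apart from the other 4 libraries. Gm8730, a gene model nearly identical to the ribosomal protein gene Rplp0, read 52.7, 0.578 and 0.463 CPM in the day 1 libraries and 67.5, 55.3 and 54.0 CPM on day 2, and Gm9625, a copy of Rps3a, read 37.0, 0.481 and 0.463 CPM in the day 1 libraries and 42.2, 29.4 and 36.9 CPM on day 2. The same 2 libraries were the highest for lactase, the lactose-splitting enzyme of the villus, with Lct at 64.1, 455 and 295 CPM on day 1 and 20.3, 59.2 and 21.1 CPM on day 2. The counts of calls between the ApccKO days, over all genes and in each gene list, and of differences from the other genotypes over all genes were therefore also made without them, which leaves 1 library on day 1, assumed to vary like the other groups. In the double knockout day 1 replicate 3 was low for Gm8730 in the same way; without it 1183 genes were called there and 134 differed from ApccKO, against the 1075 and 72 given below. Each ApccKO group held 1 male library by the expression of Y-linked genes.

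Between the days 1875 of 16552 genes tested passed edgeR's quasi-likelihood test at an adjusted p under 0.05, which is 11.3% of them. Of these, 967 (5.84%) were higher on day 2 and 908 (5.49%) lower, and 569 differed by at least 2-fold. These shares of all genes are the background for the count in each gene list below. DESeq2 called 1065 higher and 1397 lower, so that 43.3% of its calls were higher against 51.6% with edgeR. The same test called 27 genes (0.163%) in Control crypts, with 1686 genes at an unadjusted p under 0.05 against 4377 in ApccKO. It called 1075 genes in the double knockout (6.49%), 572 higher (3.46%) and 503 lower (3.04%). The 3 libraries of one day did not overlap the 3 of the other for 953 of the 967 genes called higher and 883 of the 908 called lower. Among all genes tested, 16.7% lay wholly higher on day 2 and 19% wholly lower. Without the 2 set-apart libraries 7 genes were called higher (0.0399% of 17553 tested) and 20 lower (0.114%). Leaving out 1 library gave 861 calls (day 1 replicate 2), 947 (day 1 replicate 3), 1119 (day 2 replicate 1), 1247 (day 2 replicate 2) or 999 (day 2 replicate 3), and 1874 without day 1 replicate 1.

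**Figure D1:**
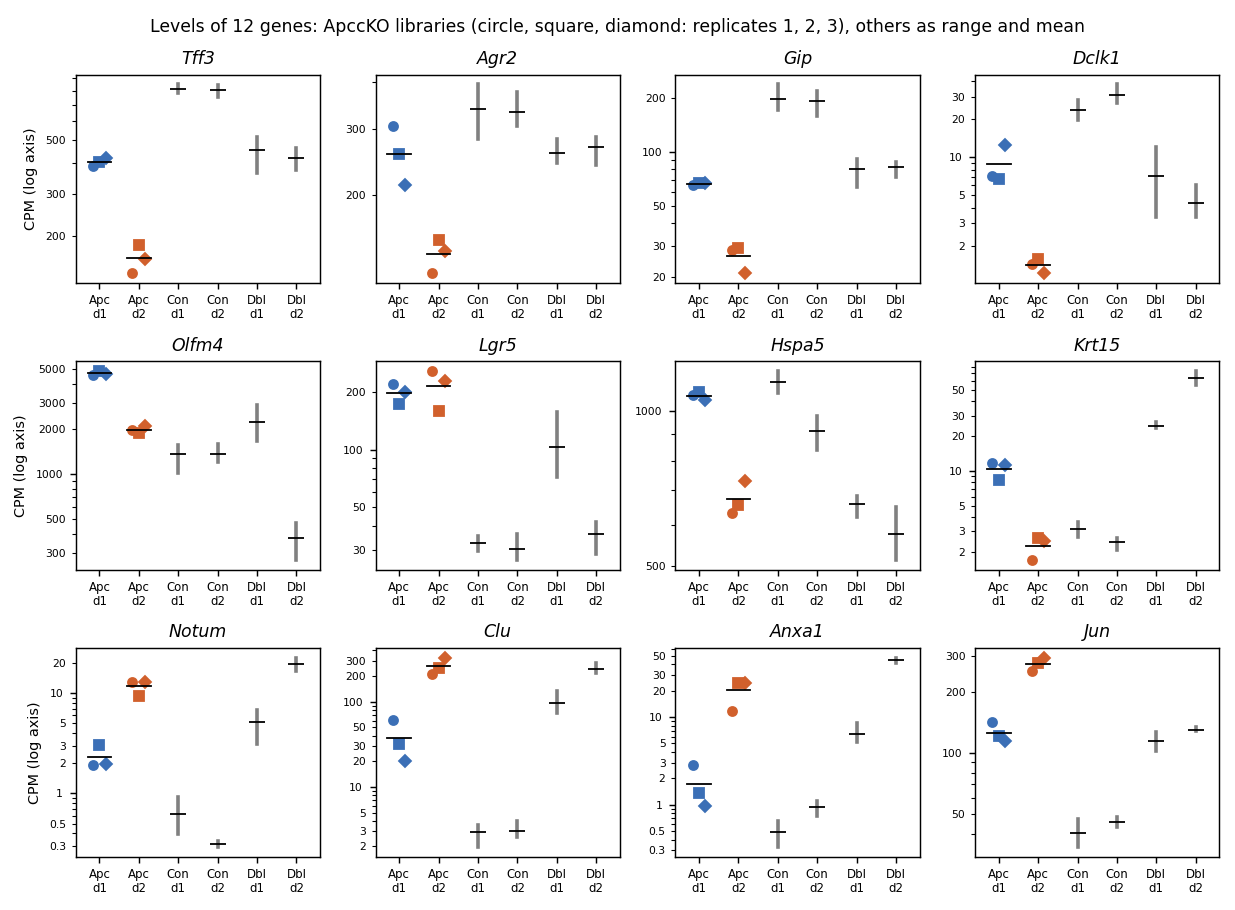
Levels of 12 genes in CPM on a log axis: ApccKO libraries as points with their mean (circle, square and diamond for replicates 1, 2 and 3; blue day 1, orange day 2), Control and double knockout as the range of 3 libraries with the mean. Tff3, Gip, Dclk1, Olfm4 and Krt15 are lower on day 2 in all 3 libraries, Notum, Clu, Anxa1 and Jun higher, and Lgr5 overlaps.

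Several secretion products of goblet cells fell. Atoh1 and Spdef, factors that specify the lineage, did not pass the test, and nor did the products Muc2 and Spink4 (Spink4 log2 0.06, adjusted p = 0.87). Of 21 goblet cell genes tested 8 fell and 1 rose, with a median log2 difference of -0.28 against -0.02 over all genes, and none was called in Control. Called or not, 11 of the 21 had a negative day difference and 10 a positive one. Tff3, the trefoil peptide secreted with intestinal mucus, was at 389, 405 and 420.1 CPM in the day 1 libraries and 141, 185 and 162 CPM on day 2. All 3 day 2 libraries lay below all 3 of day 1, and the mean was 2.49-fold lower (log2 -1.32 ± 0.12, adjusted p = 5.5e-06). In Control it was at 813 ± 35.3 CPM on day 1 and 808 ± 46.9 CPM on day 2. Clca1, listed under its older symbol Clca3 and a component of the mucus gel, read 245, 319 and 307 CPM on day 1 and 65.0, 102 and 50.5 CPM on day 2 (log2 -2.0 ± 0.28, adjusted p = 0.00028). Agr2, the disulphide isomerase that folds mucins, stood at 305, 256 and 212 CPM in the day 1 libraries and 124, 152 and 142 CPM on day 2. Its groups did not overlap (log2 -0.89 ± 0.14, adjusted p = 0.00039). The chemokine gene Ccl6 fell from 140.5, 121 and 143 CPM to 50.3, 51.4 and 35.9 CPM, and the mucus proteins Fcgbp and Zg16 were 2.03-fold and 2.52-fold lower in the mean. Klk1, a kallikrein, and Guca2a, the precursor of guanylin, were the other two that fell; the call of Guca2a was lost without day 1 replicate 3 or day 2 replicate 1.

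By contrast Muc2, the gel-forming mucin, read 709, 518 and 529.6 CPM in the day 1 libraries and 486, 495 and 408 CPM on day 2, ranges that do not overlap, with an adjusted p of 0.11. Atoh1, the factor that commits cells to the secretory fate, was at 25.2, 20.8 and 23.3 CPM on day 1 and 20.0, 25.7 and 25.7 CPM on day 2 (adjusted p = 0.9), and Spdef, which drives goblet maturation, at 48.4, 36.1 and 31.7 CPM on day 1 and 44.4, 51.6 and 57.0 CPM on day 2 (adjusted p = 0.14). Gfi1, a repressor acting downstream of Atoh1, rose by 0.73 ± 0.18 on the log2 scale (adjusted p = 0.014), a call lost on leaving out any 1 of 4 libraries (day 1 replicate 2 or 3, day 2 replicate 2 or 3). The day difference was more negative than that of Control for 6 of the 21 genes and than that of the double knockout for 4. Of the calls against Control, that of Muc2 was lost in 15 of 19 alternatives, that of Ccl6 in 10 and that of Agr2 in 7, and against the double knockout that of Agr2 was lost in 8. For Tff3 these differences were -1.31 (adjusted p = 0.0013) and -1.21 (adjusted p = 0.0027), called in all 19 alternatives of each. Muc2 also differed from the double knockout, where it rose (0.75, adjusted p = 0.0031; difference -1.09, adjusted p = 0.016), a call lost without day 2 replicate 3 of either genotype. Without the 2 set-apart libraries the list's median was -0.26, and Tff3 (-1.27, adjusted p = 0.0017), Ccl6 and Agr2 were still called.

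Tuft cell genes had the lowest median of the 4 secretory lists. Tuft cells are the rare chemosensory cells of the epithelium, and 12 of their 20 genes tested fell and none rose, with a median of -1.51. None was called in Control or in the double knockout, where the medians were 0.35 and -0.32. Dclk1, the kinase used as their marker, read 7.17, 6.74 and 12.6 CPM on day 1 and 1.43, 1.58 and 1.21 CPM on day 2, which is 6.28-fold lower in the mean (log2 -2.64 ± 0.38, adjusted p = 0.00034). Every day 2 library was under 2 CPM, and Control held 31.2 ± 5.93 CPM on that day. The leukotriene and prostaglandin genes Alox5, Alox5ap, Ltc4s and Ptgs1 were among the 12, but the prostaglandin D synthase gene Hpgds was not. The call of Ltc4s was lost in 8 of 13 alternatives, among them leaving out any 1 ApccKO library, and that of Alox5ap in 3. Alox5, which makes leukotrienes from arachidonic acid, went from 1.54, 1.01 and 2.32 CPM to 0.217, 0.271 and 0.140 CPM (log2 -2.91 ± 0.46, adjusted p = 0.00054). The taste-transduction genes Trpm5 and Plcb2 fell too, Trpm5 from 15.5, 11.1 and 21.9 CPM to 9.06, 6.41 and 6.93 CPM. So did Rgs13, Fyb, Sh2d6 and the gene for the sialic acid receptor Siglec-F, listed as Siglec5.

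Pou2f3, the factor that specifies tuft cells, read 3.77, 2.41 and 4.07 CPM in the day 1 libraries and 2.21, 1.76 and 2.28 CPM on day 2, non-overlapping with an adjusted p of 0.16. Avil and Il17rb, the interleukin-25 receptor chain, had adjusted p-values of 0.5 and 0.84, and Hpgds leaned the other way (0.72, adjusted p = 0.057). Fyb, Alox5ap, Ltc4s and Siglec5 are also expressed by leukocytes, and 5 of 28 immune cell genes fell between the same libraries, with summed levels of 140.5, 113 and 245 CPM on day 1 and 82.7, 95.5 and 90.3 CPM on day 2. Their part in the tuft result was not tested. The difference from Control was called for 7 tuft genes and that from the double knockout for 2, Alox5 (-3.26, adjusted p = 0.013) and Fyb. The call of the difference from the double knockout was lost for Fyb in 15 of 19 alternatives. With day 1 replicate 3 left out, the library highest for most of the 12 genes, 8 were called. Without both set-apart libraries the median was -1.14 and Fyb and Alox5 were still called.

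Among enteroendocrine genes, those that fell were 4 hormone genes and the gene of serotonin synthesis. Of 29 genes 5 fell and 1 rose, with a median of -0.35, and DESeq2 called 10 lower. Gip, the incretin of K cells, was at 65.5, 66.7 and 67.3 CPM on day 1 and 28.3, 29.0 and 21.0 CPM on day 2. The 3 day 1 mice lay within 2 CPM of each other and the day 2 mice 2.55-fold lower (log2 -1.35 ± 0.16, adjusted p = 5.1e-05). Neither the Control nor the double knockout crypts showed such a step: Gip read 197 and 191 CPM in the former and 80.2 and 81.9 CPM in the latter on the 2 days. The tests of those differences gave adjusted p-values of 0.0057 and 0.011. Somatostatin (Sst) fell from 17.6, 20.9 and 24.1 CPM to 8.89, 9.79 and 5.02 CPM, and cholecystokinin (Cck, log2 -1.19 ± 0.28) and proglucagon (Gcg, log2 -1.20 ± 0.30) fell too. Tph1, which makes serotonin, was the last of the 5 (-0.66, adjusted p = 0.034). Chromogranin A (Chga), carried by most endocrine cells, read 77.4, 74.5 and 75.4 CPM in the day 1 libraries and 66.0, 60.6 and 51.1 CPM on day 2 (adjusted p = 0.19), and the progenitor factor Neurog3 19.9, 17.5 and 18.1 CPM on day 1 and 14.8, 10.6 and 6.79 CPM on day 2 (adjusted p = 0.092). Pcsk1n, an inhibitor of prohormone convertase, rose from 3.22, 3.03 and 3.24 CPM to 7.07, 6.18 and 6.14 CPM. Without day 1 replicate 2 or without day 2 replicate 3 the 5 lower calls became 2, and without both set-apart libraries Gip was the 1 called (-1.34, adjusted p = 0.011).

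Summed marker levels of the goblet, tuft and enteroendocrine lists did not overlap between the days, and 3 mice against 3 cannot give an exact permutation p under 0.1. Goblet markers summed to 4969.8, 5719.7 and 5357 CPM on day 1 and 2799.6, 3675 and 2836 CPM on day 2 (exact two-sided permutation p = 0.1). Tuft markers summed to 103, 83.1 and 150.2 CPM and 69.3, 62.2 and 66.1 CPM, and enteroendocrine markers to 931, 852 and 805 CPM and 774, 804 and 641.4 CPM, each without overlap, the enteroendocrine sums by less than 1 CPM, and with the same exact p of 0.1. For enterocyte markers the sums overlapped, 5981, 16523 and 12307 CPM against 4782, 7852 and 4760.4 CPM, with the 2 set-apart libraries as the 2 highest (exact permutation p = 0.200).

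**Figure D2:**
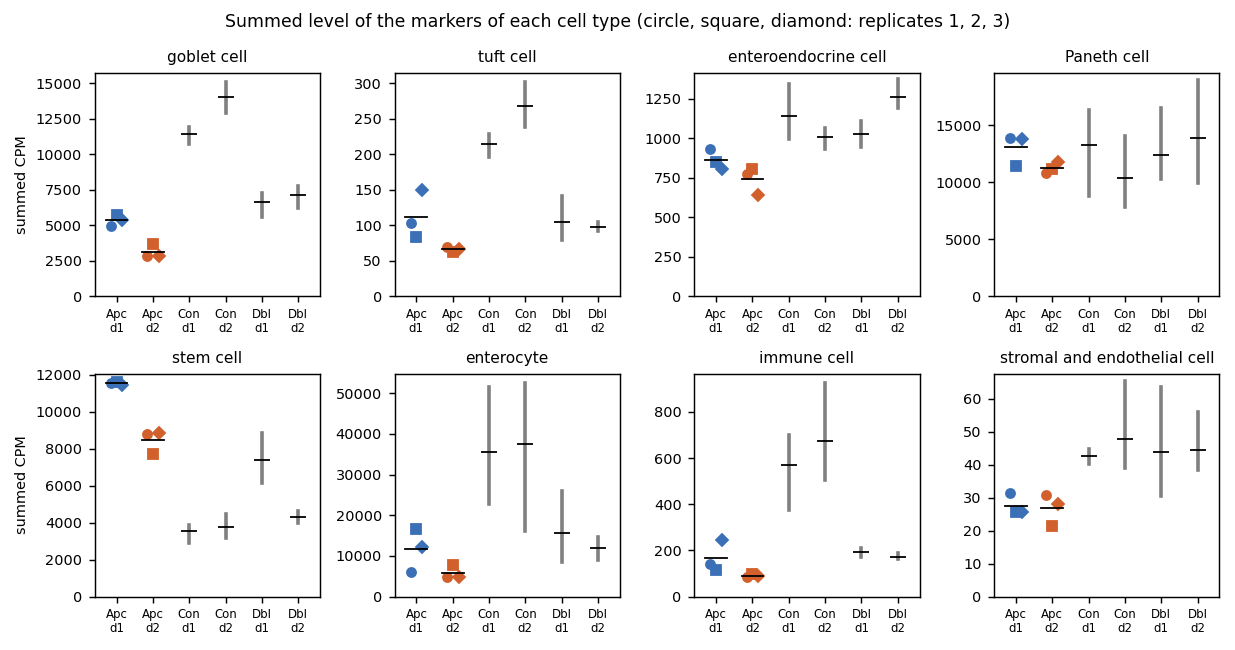
Summed CPM of the markers of 8 cell types (axes from 0): ApccKO libraries as points with their mean, Control and double knockout as the range of 3 libraries with the mean. Goblet, tuft, enteroendocrine, stem and immune sums lie lower on day 2 in all 3 ApccKO libraries, while Paneth, enterocyte and stromal sums overlap.

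Within the stem cell list the day difference was split by gene. Olfm4, a secreted glycoprotein abundant in crypt base stem cells, fell from 4604, 4877 and 4642 CPM to 1976, 1867 and 2082 CPM, 2.38-fold (log2 -1.25 ± 0.24, adjusted p = 0.0027). On day 1 all 3 ApccKO libraries were above the Control range of 1010 to 1555 CPM, and on day 2 they were still above the Control range of 1204 to 1599 CPM. Aqp4, a water channel, fell from 123, 149 and 160.2 CPM to 72.1, 47.8 and 67.7 CPM, and Clca3b, listed as Clca4, from 1234, 1269.8 and 1199 CPM to 726, 498 and 670.1 CPM. Lgr5, the R-spondin receptor that marks the stem cells, did not follow them: it read 220.3, 174 and 200.2 CPM in the day 1 libraries and 258, 159 and 230.1 CPM on day 2, overlapping and with an adjusted p of 0.81. Nor did Smoc2 (adjusted p = 0.92) or Ascl2, the transcription factor of the stem cell state (-0.33, adjusted p = 0.2), pass the test. In all, 3 of 25 stem cell genes fell and 1 rose, with a median of 0.00.

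In the double knockout 10 of the 25 fell and none rose, with a median of -0.37. Olfm4 fell there (log2 -2.56 ± 0.26, adjusted p = 2.1e-05), and the difference from ApccKO did not pass (adjusted p = 0.096). Lgr5 was the one gene of the list whose day difference was called as different between these genotypes, by 1.64 ± 0.35 (adjusted p = 0.047), a call lost in 12 of 19 alternatives. Its double knockout level fell from 104 to 36.1 CPM. Without the 2 set-apart libraries Olfm4 gave -1.23 in ApccKO (adjusted p = 0.14). Clca4 lost its call without day 2 replicate 2.

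Of 34 Wnt target genes 4 rose (11.8%, against 5.84% of all genes tested) and none fell, with a median of 0.15. Without the 2 libraries the median was 0.08. Notum, the secreted enzyme that inactivates Wnt ligands, was at 1.91, 3.03 and 1.96 CPM on day 1 and 12.9, 9.38 and 13.0 CPM on day 2. The day 2 mean was 5.12-fold higher with no overlap (log2 2.35 ± 0.29, adjusted p = 8.0e-05), and Control held 0.315 ± 0.0221 CPM on day 2. Its day difference was larger than that of Control by 3.30 ± 0.54 (adjusted p = 0.0057), while the double knockout had a day difference of 1.93 of its own. Prox1, a transcription factor of intestinal adenomas, rose from 36.3, 19.3 and 16 CPM to 90.3, 54.4 and 74.6 CPM, and Mmp7, the matrix protease that also matures Paneth cell defensins, from 358, 227 and 273 CPM to 640.8, 631.1 and 959 CPM. Rnf43, the ubiquitin ligase that removes Wnt receptors, rose by 0.37 ± 0.08 on the log2 scale. The call of Rnf43 was lost without day 2 replicate 1, and that of Mmp7 without day 1 replicate 2 or day 2 replicate 3.

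The Wnt feedback genes Axin2, Nkd1 and Sp5 did not pass edgeR's test between the days. Axin2, above the Control mean on both days, had a day difference of 0.15 ± 0.15 (adjusted p = 0.56). Nkd1 read 65.2, 67.3 and 71.5 CPM in the day 1 libraries and 125, 90.3 and 112 CPM on day 2, and Sp5 71.2, 78.6 and 73.8 CPM on day 1 and 121, 89.0 and 120.3 CPM on day 2. Neither overlapped between days, and their adjusted p-values were 0.067 and 0.075. Of 13 alternatives 3 called Nkd1, with DESeq2, with the stricter filter and with only the groups compared (adjusted p from 0.0094 to 0.22 over the 13), and 4 called Sp5 (0.02 to 0.22). Sfrp5, a secreted Wnt antagonist and one of the most lowered genes, went the other way, from 17.8, 39.4 and 36.1 CPM to 3.38, 2.17 and 1.86 CPM (log2 -3.65 ± 0.52, adjusted p = 0.00035). It fell in the double knockout too (-2.41, adjusted p = 0.016), and the difference from the Control day difference was -2.88 (adjusted p = 0.047; this call was lost in 12 of 19 alternatives).

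Paneth cell genes gave no common direction. Of 23 tested 5 rose and none fell, with a median of 0.25 that became 0.05 without the 2 set-apart libraries. The 5 were Mmp7, Nupr1, a stress-induced chromatin protein, the phospholipase gene Pla2g2a, the Notch ligand gene Dll4 and the defensin gene Defa5. Pla2g2a read 139, 87.1 and 84.5 CPM on day 1 and 256, 224 and 251 CPM on day 2 (log2 1.24 ± 0.29, adjusted p = 0.011). Lysozyme (Lyz1), the most used marker, was at 6118, 6609 and 6526 CPM in the day 1 libraries and 5003, 4909 and 5459.9 CPM on day 2, non-overlapping and lower on day 2 with an adjusted p of 0.46. Defa24 was at 1320.3, 845 and 1318 CPM in the day 1 libraries and 719, 824 and 659 CPM on day 2 (adjusted p = 0.17), and the summed list overlapped between the days. Defensin genes are near-identical copies, so the split of estimated counts among them is uncertain. Leaving out day 1 replicate 2 gave 1 call in place of the 5, leaving out day 1 replicate 3 gave 2, and leaving out both gave none.

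Genes of the fetal and regenerating epithelium rose. These are genes that mark the fetal gut and the adult gut repairing injury, and of 29 tested 10 rose and 1 fell, with a median of 0.90 (0.65 without the 2 set-apart libraries). Clu, the secreted chaperone that marks revival stem cells, was at 60.5, 32.3 and 20.1 CPM on day 1 and 214, 248 and 328 CPM on day 2. It was 7.01-fold higher (log2 2.81 ± 0.43, adjusted p = 0.00058), and Control crypts held 2.96 ± 0.873 CPM and 3.08 ± 0.742 CPM. Anxa1, an annexin of the injured epithelium, went from 2.81, 1.35 and 0.978 CPM to 11.8, 24.8 and 24.4 CPM, 11.9-fold (log2 3.55 ± 0.42, adjusted p = 7.4e-05). S100a6, a calcium-binding protein, went from 31.1, 21.4 and 12.8 CPM to 85.2, 159 and 109 CPM, and Anxa5 from 8.31, 6.5 and 5.56 CPM to 14.1, 19 and 19.3 CPM. In none of these did the days overlap.

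Keratin 7 (Krt7) rose from 190.3, 148 and 154 CPM to 258, 328 and 317 CPM. Anxa10, Basp1 and Anxa3 rose too. Leaving out 1 library lost the call of Basp1 (day 2 replicate 2), Krt7 (any of day 1 replicates 2 and 3 and day 2 replicates 2 and 3) and Anxa3 (any but day 1 replicate 1). Ly6a, which encodes the fetal marker Sca-1, read 22.8, 6.21 and 7.51 CPM in the day 1 libraries and 26.4, 33.5 and 36.4 CPM on day 2 (adjusted p = 0.15), and the growth factor gene Areg 21.0, 21.3 and 17.3 CPM in the day 1 libraries and 41.2, 41.5 and 28.7 CPM on day 2 (adjusted p = 0.13). The cell cycle gene Ccnd2 fell (-0.66, adjusted p = 0.036). In the double knockout 12 of the 29 rose and none fell, with a median of 1.35, and none of the 29 differed between these genotypes by the test of the difference. In Control none was called, and the median was -0.13. Anxa5 was the one gene called as different from Control (1.36, adjusted p = 0.034, lost in 10 of 19 alternatives); for Clu the adjusted p was 0.063. Removing day 1 replicate 3 or day 2 replicate 2 gave 7 calls in place of the 10, and removing both set-apart libraries none.

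**Figure D3:**
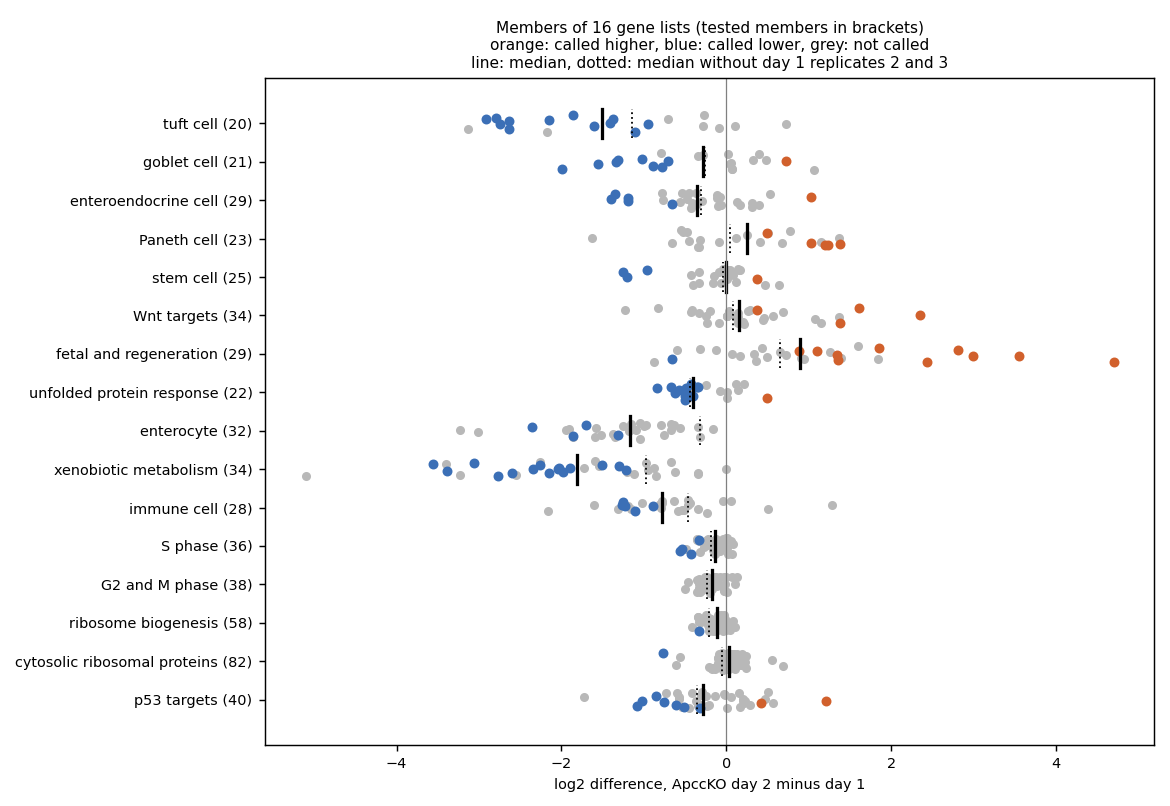
Each point is the log2 day difference (ApccKO day 2 minus day 1) of 1 member of 16 gene lists; orange points were called higher, blue lower, grey not called. The black line is the list's median and the dotted line the median without day 1 replicates 2 and 3; tuft, enterocyte and xenobiotic medians lie below -1, and the fetal and regeneration median at 0.90.

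Chaperones of the endoplasmic reticulum fell by small and even steps. Proteins bound for secretion fold in this compartment, and the unfolded protein response raises its chaperones when folding lags. Of 22 genes 13 fell and 1 rose, with a median of -0.41. Hspa5, which encodes the chaperone BiP, was at 1075, 1085 and 1047 CPM on day 1 and 631.8, 657.4 and 731 CPM on day 2 (log2 -0.67 ± 0.10, adjusted p = 0.00039). Hsp90b1, the compartment's Hsp90, was at 889.5, 865 and 822 CPM on day 1 and 572, 568 and 588 CPM on day 2 (log2 -0.58 ± 0.11, adjusted p = 0.0022). The lectin chaperones calreticulin (Calr) and calnexin (Canx) fell as well (log2 -0.35 ± 0.08 and -0.41 ± 0.08). So did the co-chaperones Dnajb11, Dnajc3 and Sdf2l1 and the secreted factor Manf, with Sdf2l1 at -0.84. In each of these 8 genes all day 2 libraries lay below all of day 1, with changes under 2-fold.

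The transcription factor gene Xbp1 and the sensor gene Ern1 of the response did not pass the test. Xbp1 was at 163, 159.6 and 139 CPM in the day 1 libraries and 167, 161 and 180.4 CPM on day 2 (adjusted p = 0.25) and Ern1 had an adjusted p of 0.52. Ern2, the goblet cell form of that sensor, rose (0.50, adjusted p = 0.033), a call lost without day 1 replicate 2 or 3 or day 2 replicate 2 or 3. No gene of the list differed in its day difference from Control or from the double knockout, whose medians were -0.16 and -0.15. Hspa5 was at 1136 ± 57.3 CPM and 914 ± 71.0 CPM in Control (-0.31, adjusted p = 0.25) and at 659.6 ± 33.4 CPM in the double knockout on day 1, where ApccKO on day 2 held 673 ± 51.5 CPM. Leaving out any 1 library gave 11 or 12 calls in place of the 13. Without both set-apart libraries none was called, with the median at -0.44.

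Several of their promoters hold a known element, and 4 are shown because these genes fell in the same libraries. It is the endoplasmic reticulum stress response element, searched as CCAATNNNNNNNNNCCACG on both strands in the 250 bases before each gene's start (RefSeq, GRCm38.p6). It was found in 8 of the 19 listed genes with a promoter in that table and in 7 of the 12 called genes among those, against 0.13% of 27025 genes in all. The list gathers genes of the response that this element is named for, so an excess over all genes was built in. Whether the element had a part in the fall was not tested. The 4 sequences are those of Hspa5 at chr2:34771840-34772089 (plus strand), Hsp90b1 at chr10:86705445-86705694 (minus strand), Calr at chr8:84846932-84847181 (minus strand) and Dnajc3 at chr14:118937682-118937931 (plus strand). Each is written 5′ to 3′ along its gene, with both boxes of the element in capitals (CCAAT and CCACG, or CGTGG and ATTGG where it lies on the other strand). Hsp90b1 holds 2 matches, one on each strand, and the others 1.
Hspa5: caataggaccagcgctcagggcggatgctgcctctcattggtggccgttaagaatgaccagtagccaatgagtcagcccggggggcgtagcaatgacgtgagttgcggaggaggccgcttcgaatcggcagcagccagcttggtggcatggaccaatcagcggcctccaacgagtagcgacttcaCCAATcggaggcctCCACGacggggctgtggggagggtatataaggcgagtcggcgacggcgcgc
Hsp90b1: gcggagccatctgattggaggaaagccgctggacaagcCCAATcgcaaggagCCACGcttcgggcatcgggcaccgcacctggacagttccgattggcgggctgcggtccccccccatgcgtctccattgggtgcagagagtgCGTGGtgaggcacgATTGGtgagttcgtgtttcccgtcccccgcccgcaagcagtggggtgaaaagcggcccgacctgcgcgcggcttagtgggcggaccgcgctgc
Calr: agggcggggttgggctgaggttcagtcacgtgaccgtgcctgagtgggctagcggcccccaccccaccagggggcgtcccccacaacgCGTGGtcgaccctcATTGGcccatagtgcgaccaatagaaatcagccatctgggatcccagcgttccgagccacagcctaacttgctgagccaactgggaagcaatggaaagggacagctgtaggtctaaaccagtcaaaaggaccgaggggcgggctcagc
Dnajc3: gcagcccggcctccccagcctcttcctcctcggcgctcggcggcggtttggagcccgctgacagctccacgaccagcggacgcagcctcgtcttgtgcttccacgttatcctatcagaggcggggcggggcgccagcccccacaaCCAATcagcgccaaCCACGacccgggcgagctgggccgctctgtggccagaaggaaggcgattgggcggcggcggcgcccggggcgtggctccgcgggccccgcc

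A match is a description of the letters and not of a factor bound there. Motifs for 5 other lists were searched in the same windows. The Wnt effector motif CTTTGAA was in none of the 22 Wnt targets with a promoter (5.19% of all genes hold it) and CTTTGAT in 3 of 22 (3.72%). The TEAD motif GGAATG was in 3 of 18 fetal and regeneration genes (14.4%), and the octamer ATGCAAAT of the POU family in 1 of 17 tuft genes (1.81%). The HNF4 motif CAAAGTCCA was in 3 of 27 enterocyte genes (Alpi, Cyp3a11 and Treh) and 2 of 31 drug-metabolising genes (Cyp2c65 and Cyp3a11), against 0.451% of all genes.

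Enterocyte and detoxification genes were lower on day 2, and the 2 set-apart libraries were the highest on day 1. All 32 enterocyte genes had a negative day difference, with a median of -1.17, and 4 were called. Sucrase-isomaltase (Sis) read 181, 709 and 622 CPM on day 1 and 70.0, 155 and 68.8 CPM on day 2 (log2 -2.36 ± 0.64, adjusted p = 0.024), and the other three were Alpi, Khk and Fabp1. DESeq2 called 14 of the 32 lower. On day 1, replicate 1 lay far below replicates 2 and 3 and near the day 2 libraries. The median without these 2 was -0.32, and Sis then gave -0.90 (adjusted p = 0.75). None of the 4 was called without day 1 replicate 2, without day 1 replicate 3, without day 2 replicate 1 or without day 2 replicate 3, and 11 were without day 1 replicate 1. Another pair of villus genes, named by size, also had day 1 replicate 1 as the lowest of its day: the alkaline phosphatase gene Akp3 at 215, 1079 and 1075 CPM in the day 1 libraries and 159.7, 134 and 76.5 CPM on day 2 and the calcium carrier gene S100g at 19.4, 39.4 and 93.7 CPM on day 1 and 5.94, 12.1 and 6.05 CPM on day 2. The call of Akp3 was lost in 7 of 13 alternatives and that of S100g in 8. Their log2 differences of -2.68 and -2.66 were -0.81 and -1.29 without both set-apart libraries.

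For drug-metabolising genes 15 of 34 fell and none rose, with a median of -1.81, and DESeq2 called 24 lower. Abcg2, an efflux pump, fell from 25.4, 37.3 and 31.0 CPM to 12.4, 14 and 11.4 CPM with no overlap (log2 -1.30 ± 0.23, adjusted p = 0.0012). The glutathione transferases Gstm3 and Gsta1, the carboxylesterase Ces1f and the bilirubin transferase Ugt1a1 were the next by p. Gstm3 was at 24.7, 72.3 and 43.2 CPM on day 1 and 6.59, 9.11 and 7.44 CPM on day 2. Gsta1 was at 12, 51.2 and 19.7 CPM on day 1 and 2.78, 4.20 and 2.98 CPM on day 2. Both were lowest on day 1 in replicate 1, yet above every day 2 library. Cyp3a25, a cytochrome P450, spread from 10.1, 56.3 and 29.1 CPM on day 1 to 0.477, 6.86 and 1.77 CPM on day 2. The list's median was -0.97 without the 2 libraries, when none was called, and the 15 calls became 6 without day 1 replicate 2 or day 2 replicate 1, 7 without day 2 replicate 3 and 22 without day 1 replicate 1. Slco2b1, an organic anion carrier, was at 4.36, 13.3 and 13.6 CPM on day 1 and 0.650, 1.35 and 0.698 CPM on day 2. It held its call without both libraries (-2.28, adjusted p = 0.041), and its difference from the Control day difference was -3.68 (adjusted p = 0.0031).

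Further lowered genes of the same kind were Akr1c14 and Akr1c19, aldo-keto reductases, and Rdh7, a retinol dehydrogenase. Akr1c14 was the most lowered of the genes named by size (-4.07 ± 0.88, adjusted p = 0.0069), at 6.36, 16 and 20.2 CPM on day 1 and 1.08, 0.992 and 0.419 CPM on day 2. The amino acid carrier gene Slc1a1 fell from 24.1, 18.5 and 17.8 CPM to 9.80, 7.58 and 12.3 CPM, highest in day 1 replicate 1 (log2 -1.03 ± 0.18; -1.30 without the 2 libraries, adjusted p = 0.032). Slc7a8 and Slc6a20a, 2 other carriers, fell with replicates 2 and 3 high on day 1: Slc6a20a read 18.4, 77.8 and 69.6 CPM in the day 1 libraries and 6.85, 16.2 and 7.72 CPM on day 2. The call of Slc6a20a was lost in 6 of 13 alternatives and that of Rdh7 in 4. Among the factors of enterocyte fate, Ppara, the fatty acid sensor, and Hnf4g fell, Hnf4g from 50.2, 73.3 and 79.3 CPM to 33.6, 36.9 and 29.9 CPM. The call of Hnf4g was lost without day 1 replicate 2 or 3 or day 2 replicate 3. Klf5 and Gata5 rose, Klf5 from 202, 185 and 173 CPM to 272, 245 and 292 CPM. Of the 24 fate factors these 4 were all that passed, with a median of -0.03.

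Immediate early genes rose in part. Of 24 tested 5 rose and none fell, with a median of 0.25, and the same number rose in the double knockout. Jun, the AP-1 subunit, went from 142, 121 and 114 CPM to 253, 277 and 294 CPM, 2.18-fold (log2 1.13 ± 0.12, adjusted p = 3.1e-05). The day 2 libraries lay within 253 to 294 CPM, and Control held 45.8 ± 2.60 CPM. Jun's day difference was larger than that of Control by 0.95 ± 0.17 (adjusted p = 0.0093) and than that of the double knockout by 0.94 ± 0.17 (adjusted p = 0.021; lost in 6 of 19 alternatives), and the call between the days held without the 2 set-apart libraries (0.94, adjusted p = 0.039). Ier3 rose from 8.67, 5.92 and 4.63 CPM to 20.4, 21.0 and 16.6 CPM, in the double knockout as well (1.65, adjusted p = 0.00024). Junb, Klf6 and the cytokine signalling inhibitor Socs3 were the other three. Without day 1 replicate 2, day 1 replicate 3 or day 2 replicate 1 the list had 2 calls, Junb not among them, and Klf6 lost its call on leaving out any 1 library.

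Targets of p53 were split, with 7 of 40 lower (11 with DESeq2) and 2 higher and a median of -0.28. The edgeR counts are 17.5% and 5.0%, against 5.49% and 5.84% of all genes tested. Ccng1, a p53-induced cyclin, fell from 153, 134 and 136 CPM to 74.8, 80.5 and 79.0 CPM (log2 -0.85 ± 0.18, adjusted p = 0.0044). In the double knockout it read 463 and 598 CPM, and the difference of day differences was -1.22 ± 0.25 (adjusted p = 0.037; lost in 10 of 19 alternatives). Eda2r, a death receptor, fell to 5.68, 7.35 and 6.98 CPM from 16.3, 13.1 and 13.1 CPM, and it fell in Control too (-1.83, adjusted p = 0.022). Ei24 and Dcxr fell as well (log2 -0.32 ± 0.07 and -0.52 ± 0.14). Ddit4, which restrains mTOR and also answers other stresses, rose from 107, 88.1 and 91.0 CPM to 191, 256 and 214 CPM. The count of 7 became 2 to 4 on leaving out any 1 library, the lowest without day 2 replicate 1. The Control median for these genes was -0.21 and that of the double knockout 0.21, where 5 rose.

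Of 29 genes of the integrated stress response 5 rose and 3 fell. Slc6a9, a glycine carrier, rose from 10.7, 9.58 and 8.44 CPM to 18.6, 22.4 and 22.1 CPM (log2 1.13 ± 0.17, adjusted p = 0.00034). Chac1, which degrades glutathione, rose by 1.62 ± 0.34 (adjusted p = 0.0043), more than in Control by 2.03 (adjusted p = 0.046; lost in 12 of 19 alternatives). The 3 lower calls became 1 without day 2 replicate 2 or 3. Odc1, the first enzyme of polyamine synthesis and a Myc target, fell from 316, 310.0 and 300.4 CPM to 224, 216 and 217 CPM. Its list of Myc and polyamine genes had 5 lower and 2 higher of 27, with a median of -0.15; the 5 became 2 without day 2 replicate 2.

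Antimicrobial and chemokine genes moved both ways, with 6 of 21 called higher and 3 lower. Ccl25, the chemokine that draws T cells to the small intestine, fell from 95.6, 151 and 146 CPM to 49.1, 59.7 and 44.3 CPM (log2 -1.35 ± 0.21, adjusted p = 0.00049), with a difference from Control of -1.52 (adjusted p = 0.014). Pigr, which carries antibodies across the epithelium, and the inflammasome gene Nlrp6 fell too. Nos2, the inducible nitric oxide synthase, was at 3.22, 2.26 and 2.37 CPM in the day 1 libraries and 6.2, 44.2 and 10.2 CPM on day 2, with day 2 replicate 2 far above the rest. Ccl20 was high in the same mouse alone, at 0.863, 0.626 and 1.24 CPM on day 1 and 0.390, 34.8 and 1.16 CPM on day 2: the log2 difference of 3.73 became -0.24 without it. The call of Nos2 was lost without day 1 replicate 2 or 3 or day 2 replicate 2. In Control Nos2 was at 0.567 ± 0.174 CPM on day 1 and 5.26 ± 4.45 CPM on day 2 (log2 3.23, adjusted p = 0.14). The ApccKO day difference minus that of Control was -0.29 (adjusted p = 0.95). The neutrophil chemokine gene Cxcl1 was at 0, 0.241 and 0.154 CPM on day 1 and 1.08, 3.74 and 0.744 CPM on day 2. Saa1, the acute phase protein, had no count in any day 1 library and 4, 15 and 14 counts on day 2, which is at least 3.24-fold higher taking 3 counts per library as the floor. Il22ra1, a chain of the interleukin-22 receptor, and Duoxa2 were called higher (log2 0.63 ± 0.19 and 1.8 ± 0.57), and each lost its call on leaving out any 1 library. Without day 1 replicate 2, day 1 replicate 3 or day 2 replicate 2 the 6 higher calls were 2. The median of 1.0 became 0.48 without the set-apart pair.

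Few cell division and ribosome genes were called, but most in the lists of division and ribosome biogenesis leaned lower. Day differences were negative for 33 of 38 G2 and M genes, 30 of 36 S phase genes and 52 of 58 ribosome biogenesis genes. Wholly lower on day 2 were 21, 21 and 23 genes (19% of all genes tested), and wholly higher 2, 0 and 0. Each list's summed level was lower without overlap (exact permutation p = 0.1). The Control medians were -0.07, -0.17 and -0.21. No gene of 38 of the G2 and M phases was called by edgeR or DESeq2, 5 were lower at an unadjusted p under 0.05 in edgeR, and the median was -0.17. In the double knockout 25 of the 38 fell, with a median of -0.61, but the test of the difference between the genotypes called none of them. For S phase 4 of 36 fell (11.1%, against 5.49% of all genes tested), Slbp, Tyms and E2f8 among them. The median was -0.14 against -0.54 in the double knockout, where 21 fell. Slbp, which binds histone RNA, went from 85.8, 88.2 and 95.7 CPM to 71.1, 70.5 and 73.4 CPM, and none of the 4 was called without day 1 replicate 3. Of 58 ribosome biogenesis genes 1 fell and none rose, with a median of -0.11, and of 82 cytosolic ribosomal protein genes 1 fell. None of 13 genes of the mitochondrial genome was called.

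In Notch signalling 5 of 23 genes rose and 2 fell (21.7% and 8.7%, against 5.84% and 5.49% of all genes tested). The ligand gene Dll4, the receptor gene Notch2, the coactivator gene Maml1 and Hes6 were among those that rose. Notch2 went from 53.8, 51.8 and 55.5 CPM to 82.5, 67.4 and 81.8 CPM (log2 0.52 ± 0.13, adjusted p = 0.014). Nrarp, a feedback inhibitor induced by Notch, fell from 33.2, 33.9 and 39.1 CPM to 19.3, 28.0 and 22.8 CPM. Leaving out day 1 replicate 2, day 2 replicate 2 or day 2 replicate 3 gave 1 call in place of the 5. For the BMP and TGF-beta pathway 4 of 29 rose (13.8%) and 1 fell (3.45%), against the same 5.84% and 5.49%. They were led by the ligand gene Tgfb1, at 2.77, 2.65 and 2.78 CPM on day 1 and 5.29, 5.82 and 5.72 CPM on day 2 (log2 1.04 ± 0.18, adjusted p = 0.0012). Its groups did not overlap, and its day difference exceeded that of Control by 1.07 ± 0.26 (adjusted p = 0.047; lost in 15 of 19 alternatives). The count of 4 fell to 1 without day 1 replicate 2, day 1 replicate 3 or day 2 replicate 3.

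Markers of other cell types that a crypt preparation can hold were measured as well. Of 28 immune cell genes 5 fell (8 with DESeq2) and none rose, with a median of -0.78 (-0.47 without the 2 libraries). They were the granzymes Gzma and Gzmb, the T cell receptor chains Cd3g and Cd3e and the chemokine gene Ccl5. Gzma, from intraepithelial lymphocytes, was at 28.7, 29.9 and 58.5 CPM in the day 1 libraries and 13.4, 18.8 and 17.8 CPM on day 2, with day 1 replicate 3 the highest, and without that library, or without day 2 replicate 1, none of the 5 was called. Control crypts held 151 ± 46.8 CPM of it on day 1. Stromal and endothelial markers summed to 31.4, 25.7 and 25.6 CPM on day 1 and 30.7, 21.6 and 28.2 CPM on day 2 (exact permutation p = 0.900). Of 17 such genes tested 3 rose and 1 fell: Vim, the intermediate filament of mesenchymal cells, fell from 10.7, 7.94 and 6.95 CPM to 4.64, 3.52 and 3.49 CPM, while Tagln, Vwf and Acta2 rose at low levels. None of those 3 was called without day 1 replicate 2 or without day 1 replicate 3. Red blood cell markers, mainly globin genes, summed to 8.54, 10.3 and 5.87 CPM on day 1 and 30.4, 9.52 and 65.3 CPM on day 2, high in day 2 replicates 1 and 3 and overlapping in replicate 2 (exact permutation p = 0.200). None of the 5 tested was called by edgeR or DESeq2, and 4 were higher at an unadjusted p under 0.05 in edgeR, with a median of 2.12. The medians were 0.05 in Control and 3.47 in the double knockout, where 3 rose.

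The genes most raised by size included several not named above. Of 10 imprinted growth genes tested 2 rose (20%, against 5.84% of all genes tested) and none fell. Their day differences were positive for 5 and negative for 5, with a median of 0.02. H19, an imprinted growth-restraining RNA, was at 6.95, 0.915 and 0.257 CPM on day 1 and 31.0, 19.6 and 38 CPM on day 2, non-overlapping but with day 1 replicate 1 well above the other two (log2 3.43 ± 0.72, adjusted p = 0.0056). Pdlim7, an actin-binding adaptor, rose from 12.6, 8.91 and 6.85 CPM to 55.5, 66.1 and 65.5 CPM (log2 2.72 ± 0.31, adjusted p = 5.9e-05), and its day difference exceeded that of Control by 2.75 (adjusted p = 0.0057). Vill, a relative of villin, and Grhl3, an epithelial barrier factor, rose by 2.80 ± 0.41 and 2.78 ± 0.57. Tnfrsf11b, the decoy receptor osteoprotegerin, rose from 3.36, 2.70 and 2.27 CPM to 10.6, 13.8 and 14.2 CPM; its level in the double knockout was 4.91 CPM on day 1 and 4.79 CPM on day 2 (difference 2.24, adjusted p = 0.032, lost in 8 of 19 alternatives). Fstl4, a follistatin-like protein, had the same contrast, from 5.27, 2.41 and 2.47 CPM to 19.2, 15.2 and 23.9 CPM here against -0.23 on the log2 scale in the double knockout. The call of its difference from the double knockout (adjusted p = 0.04) was lost in 10 of 19 alternatives. The others named by size were Rab11fip5, Mdfi, Sprr2a3 and the collagen gene Col16a1, which spread from 28.4, 8.33 and 3.96 CPM on day 1 to 72.7, 58.7 and 94.4 CPM on day 2. The day calls of Sprr2a3 and Col16a1 were each lost in 4 of 13 alternatives.

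Krt15 fell here and rose in the other Apc-lost crypts. This keratin of progenitor cells was at 11.6, 8.33 and 11.4 CPM on day 1 and 1.69, 2.62 and 2.46 CPM on day 2 (log2 -2.21 ± 0.27, adjusted p = 7.7e-05), 4.63-fold lower in the mean. Its level in double knockout crypts rose from 24.6 ± 1.75 CPM to 64.2 ± 8.98 CPM (1.38, adjusted p = 0.0024). The difference of the day differences was -3.59 ± 0.36 (adjusted p = 6.4e-05), and the Control levels were 3.18 and 2.44 CPM. Without the 2 set-apart libraries the ApccKO day difference was -2.38 (adjusted p = 0.0051). Gkn3, Cap2 and the protease gene Cym were with Fstl4 and Tnfrsf11b the 5 most positive differences. Gkn3, Cap2 and Cym fell in the double knockout and were not called in ApccKO (adjusted p = 0.45, 0.07 and 0.65). The call of the Gkn3 difference was lost in 12 of 19 alternatives. Cyp2e1 and Ces2g fell here, from 16.4, 25.1 and 21.4 CPM to 7.68, 8.53 and 7.91 CPM and from 40.7, 46.6 and 47.8 CPM to 16.3, 21.3 and 12.3 CPM, and were not called in the double knockout. Their differences from the double knockout were lost in 11 and 8 of 19 alternatives. Cyp2e1 had a similar day difference in Control (-1.28, adjusted p = 0.17), with a difference from ApccKO of -0.10 (adjusted p = 0.96).

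Across all genes the difference between ApccKO and the double knockout was called for 72 genes (0.435% of those tested) and that between ApccKO and Control for 187 (1.13%). The 2 Apc-lost comparisons share no library. Of the 967 genes called higher in ApccKO 240 (24.8%) were called higher in the double knockout, which is 42.0% of its 572, and 4 were called lower. Of the 908 called lower 111 (12.2%) were called lower there, 22.1% of its 503, and 4 higher. Of the 187 genes that differed from Control, 79 were among the 967 and 94 among the 908, each in the direction of its call. Ros1, a receptor kinase, and the carbonic anhydrase gene Car4 were among the most negative of these, Ros1 at 0.908, 1.11 and 1.34 CPM in the day 1 libraries and 0.130, 0.0451 and 0.0465 CPM on day 2 and Car4 at 1.09, 2.17 and 1.29 CPM in the day 1 libraries and 0.217, 0.226 and 0.0465 CPM on day 2. Ltbp4, which binds latent TGF-beta, and Myl7 were among the most positive, Ltbp4 at 4.81, 2.70 and 3.5 CPM on day 1 and 12.1, 9.79 and 13.3 CPM on day 2. Ighg2b, an antibody gene, was named for the same contrast but was not called in ApccKO (adjusted p = 0.39).

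**Figure D4:**
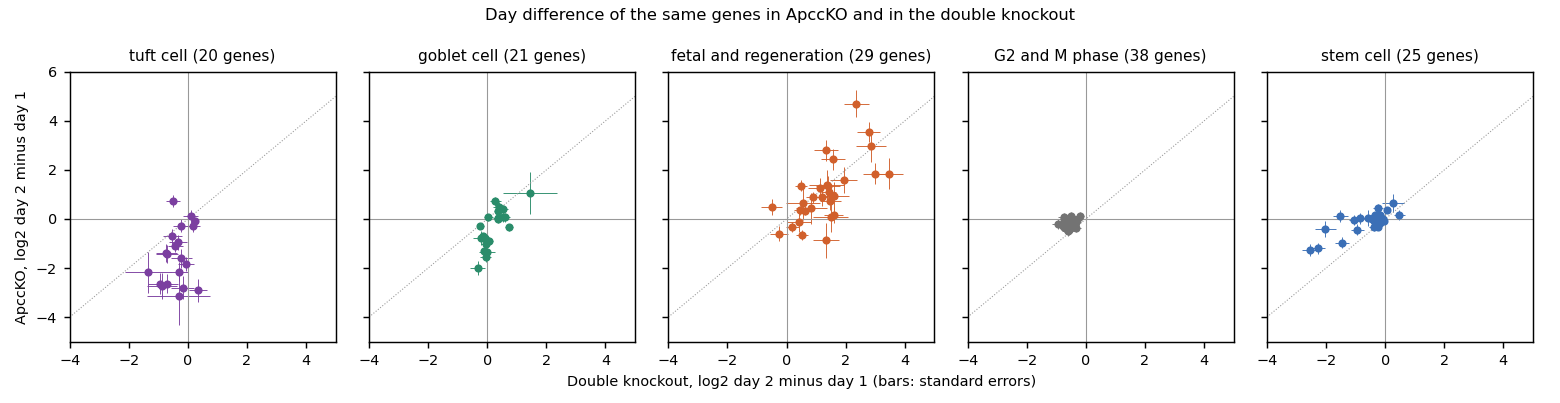
Log2 day difference of the same genes in ApccKO (vertical) and in the double knockout (horizontal) for 5 gene lists, with standard errors; the dotted line marks equal differences. The medians are -1.51 here and -0.32 there for tuft genes, and 0.90 and 1.35 for fetal and regeneration genes.

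Sco2 and Klhl32 were near 0 in some mice and not in others. Sco2, an assembly factor of cytochrome c oxidase, had 64, 123 and 139 counts in the day 1 libraries and 0 counts in all 3 of day 2. With 3 counts per library as the floor, Sco2 was at least 38.2-fold lower, and it differed from Control (adjusted p = 0.022) and from the double knockout (adjusted p = 0.021), which held 13.2 ± 1.24 CPM on day 2. Klhl32 was at 21.1, 21.4 and 1.44 CPM in the day 1 libraries and 1.13, 1.22 and 0.837 CPM on day 2, so that day 1 replicate 3 lay close to day 2. Control mice showed the same step, from 17.7 ± 1.45 CPM to 1.25 ± 0.179 CPM (SD, n = 3; adjusted p = 0.021). Double knockout mice held 1.05 and 1.02 CPM.

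Few genes were called without the 2 set-apart libraries. That fit has 1 library on day 1, so losing a call there does not show that the call rested on those 2. The following were named because they were called there. Besides Jun and Notum, those higher included Lphn2, Rem2, Sorcs2 and Tbcd. The 20 lower genes included Tff3, Agr2, Ccl6, Gip, Alox5, Fyb, Krt15, Slc1a1, Slco2b1 and Klhl32. Afp, the fetal albumin relative, was another, at 11.3, 19.7 and 13.7 CPM on day 1 and 2.47, 2.48 and 1.44 CPM on day 2 (log2 -2.80 ± 0.34, adjusted p = 9.7e-05), which fell in the double knockout as well (-1.19, adjusted p = 0.026). Parm1, a mucin-like membrane protein, fell from 27.1, 35.9 and 28.3 CPM to 8.85, 8.53 and 9.63 CPM, with a day difference below that of Control (adjusted p = 0.0093) and of the double knockout (adjusted p = 0.041, lost in 10 of 19 alternatives). Cps1, which makes carbamoyl phosphate, fell from 2792, 3367 and 3228 CPM to 1622, 1517 and 1643 CPM. The rest were Far2, Slc16a12, Ugt1a6a, Capn13, Ddit4l, Hs6st2 and 8430419L09Rik, and in each of the 27 all 3 day 2 libraries lay on one side of all 3 of day 1.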

How the data were processed

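Crypt RNA of 24 mice was sequenced, 1 library each, and the 6 ApccKO libraries carry the comparison. The authors deposited estimated counts per gene, made with kallisto 0.43 on build mm9, per the submitters' processing notes. They also deposited a normalised count signal, which is those counts divided by 1 size factor per library, with DESeq and DESeq2 named in the submitters' processing notes. The deposited TPM values of the authors (transcripts per 1e6) served only to repeat the summed marker levels, and the normalised signal was not used in a test. Annotation, read length and strandedness are not named in these sources.

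Estimated counts were rounded to whole numbers and tested with edgeR 4.0.16 in R 4.3.3 (TMM scaling, filterByExpr at min.count 10 with the 8 groups, robust quasi-likelihood test, one mean per group over all 24 libraries, Benjamini-Hochberg adjustment, threshold 0.05). This left 16552 of 37620 genes. Every adjusted p is from that fit, or from the same fit without the libraries named, except the ranges over alternatives given for Nkd1 and Sp5. Where a log2 difference carries a ± value, it is a standard error worked back from the test. It is the absolute log2 difference divided by the square root of the test's F statistic. The day difference of ApccKO minus that of Control or of the double knockout is an interaction term. Summed marker levels were compared with an exact permutation test. Tests were tried on simulated data made from these libraries' means. Alternatives were DESeq2 1.42.0, its size factors in edgeR, no filter or a stricter one, the replicate number as a block, only the groups compared, a term for sex and leaving out libraries. Where a call is said to be lost in a number of alternatives, the fit without both set-apart libraries was not counted among them.

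The comparison and the gene lists were chosen with earlier results of these data known. Genes were named by rule: the 15 most raised and 15 most lowered called genes with at least 5 CPM on average and no overlap between the days, up to 5 genes per list by p together with the defining markers of cell types, and the 5 most positive and 5 most negative interactions. Chosen after their values were seen were Axin2, Nkd1, Sp5, Hsp90b1, Calr, Canx, Xbp1, Ern1, Ern2, Krt7, Anxa10, Basp1, Anxa3, Ccnd2, Ly6a, Areg, Dcxr, Ccl20, Pigr, Il22ra1 and Duoxa2. Some genes that the rules name are not reported here. The labels call the libraries separate mice. The ApccKO libraries of the 2 days hold separate runs of sample codes, so a handling batch that follows the codes cannot be told apart from the day.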

Additional observations from a re-analysis of the deposited data

Results flagged for a closer look

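Each value here is the log2 day difference in ApccKO crypts minus that of another genotype, and each was picked out because edgeR's interaction term passed at an adjusted p under 0.05. The ApccKO libraries are the same in both contrasts. Of the 74 calls, 24 were lost in 10 or more of 19 alternatives and 24 in none. The fit without both set-apart libraries is not among the 19, so a call lost in none of them may still be lost there.

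Against Control, the goblet, tuft and endocrine genes picked out had lower day differences in ApccKO, while Mmp7 of the Paneth list had a higher one. The goblet cell values were -1.31 for Tff3, -1.21 for Ccl6, -2.23 for Clca3, -0.86 for Agr2, -1.47 for Fcgbp and -0.80 for Muc2, and Gip of the K cells gave -1.31. Tuft cell genes differed by -3.03 for Dclk1, -2.09 for Fyb, -3.36 for Alox5, -3.05 for Rgs13, -2.54 for Ptgs1 and -2.10 for Plcb2. Absorptive and transport genes gave -1.32 for Slc1a1, -2.37 for Slc7a8, -4.21 for Car4, -1.79 for Ppara, -2.58 for Akr1c19 and -3.68 for Slco2b1. The stem cell gene listed as Clca4 gave -1.60, the Wnt antagonist Sfrp5 -2.88 and the keratin Krt15 -1.82.

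Values above 0 against Control were 3.30 for Notum and 1.92 for Mmp7 among Wnt targets and 1.36 for Anxa5 of the fetal and regeneration list. Among stress and early response genes they were 0.95 for Jun, 1.78 for Ier3 and 2.03 for Chac1. Others were 3.54 for Vill, 2.75 for Pdlim7, 2.18 for Mdfi, 2.11 for Ltbp4, 2.01 for Myl7 and 1.07 for Tgfb1. Genes named above for their call between the ApccKO days without the set-apart libraries added further differences from Control. These differences are from the fit with all libraries. They were 0.77 for Lphn2, 2.86 for Rem2, 1.01 for Sorcs2 and 0.42 for Tbcd. Below 0 they were -2.03 for Afp, -0.79 for Cps1, -1.28 for Parm1, -0.78 for Far2, -2.07 for Capn13 and -1.49 for 8430419L09Rik. Defence and other genes gave -1.52 for Ccl25, -0.71 for Nlrp6, -6.53 for Ighg2b and -3.91 for Ros1. Sco2 gave -8.96, a fitted value that is no bound because its day 2 libraries are all at 0.

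Against the double knockout, goblet values were -1.21 for Tff3, -1.50 for Ccl6, -0.94 for Agr2 and -1.09 for Muc2, tuft values -1.78 for Fyb and -3.26 for Alox5 and endocrine values -1.38 for Gip and -1.54 for Sst. Lgr5 gave 1.64 and Krt15 -3.59. Metabolic and transport genes gave -1.26 for Slc1a1, -1.87 for Cyp2e1 and -1.79 for Ces2g, and p53 targets -1.22 for Ccng1 and -1.0 for Dcxr. Values above 0 were 2.48 for Gkn3, 2.75 for Fstl4, 2.24 for Tnfrsf11b, 0.94 for Jun, 4.20 for Cym and 2.52 for Cap2. Values below 0 were also -1.09 for Parm1, -1.49 for Ddit4l and -2.94 for Hs6st2, and the fitted value for Sco2 was -9.66.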

How the results depend on the processing

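The 1875 calls between the days became 861 to 1874 when 1 library was left out and 27 without both set-apart libraries, and 1763 with the replicate block. The 27 Control calls became 146 with DESeq2, 17 with no filter, 16 with the replicate block, 5 with only the groups compared, 50 with a term for sex, and 0 to 82 with 1 library left out. For the 1075 calls of the double knockout, using only the groups compared gave 454, and leaving out 1 library gave 254 to 1183. The 187 differences from Control were 508 with DESeq2, 118 with no filter, 108 with only the groups compared, 2 without both set-apart libraries, and 66 to 403 with 1 library left out. The 72 differences from the double knockout were 297 with DESeq2, 113 with a term for sex, 7 without both set-apart libraries, and 8 to 134 with 1 library left out. Except where a library left out means fewer samples, the cause was not tested.

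Of the named genes called between the ApccKO days, Ccl20 alone changed sign, at -0.24 without day 2 replicate 2 and up to 4.29 without another library; Atoh1, Avil, Il17rb, Lgr5, Smoc2 and Gm9625, none of them called, changed sign on leaving out 1 library or both set-apart ones. Leaving out 1 library kept direction and side of the threshold in 1455 single-gene values and lost the call in 544; the other settings that kept all libraries kept 1667 and lost 134. The summed goblet difference was -0.48 in TPM against -0.79 in CPM (log2). Replicate numbers did not pair the ApccKO mice: deviations of same-numbered libraries correlated at -0.046, 0.001 and -0.074, and the block took lower enterocyte calls from 4 to 2, lower Notch calls from 2 to 4 and lower circadian clock calls from 2 to 1. Among named genes the block lost the day calls of Khk, Fabp1, S100g, Anxa3, Ccl20, Duoxa2, Ccl5, Gzmb and Acta2 and gained Sp5, Neurog3 and Cap2. It lost the differences from Control of Muc2, Ccl6, Plcb2, Slc7a8, Akr1c19, Mmp7, Anxa5, Mdfi, Tgfb1, Chac1, Ighg2b and Afp and those from the double knockout of Fyb, Sst, Slc1a1 and Lgr5. DESeq2 also took lower calls from 2 to 4 for enterocyte fate factors and from 1 to 3 for cytosolic ribosomal proteins, and counts of 0 or 1 up by 1 or 2 in 9 other lists. Depth was similar in the 6 libraries; genes under about 1 CPM rest on few counts.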
